A study of Homo sapiens with 15 samples.

Results

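A set of 10 genes of the oxygen-sensing pathway was followed in bronchial epithelial cells exposed to fine particulate matter (PM2.5). They are ADM and 9 genes linked to the hypoxia-inducible factors (HIF): HIF1A, EGLN1, EGLN3, VEGFA, ANGPTL4, NDRG1, BNIP3, CA9 and P4HA1. The 10 genes were taken as a named list, with no threshold on their values, out of 58219 genes in the deposited count table. The list was chosen with earlier results of these data known. All 10 were among the 17599 genes that passed the filter on low counts and were tested.

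HIF is a transcription factor made of an alpha subunit, such as the product of HIF1A, and a beta subunit encoded by ARNT. While oxygen is plentiful, prolyl hydroxylases encoded by EGLN1 and EGLN3 mark the alpha subunit, the product of VHL binds it, and it is degraded. When oxygen is scarce the alpha subunit accumulates, enters the nucleus and switches on genes for blood vessel growth, sugar use and pH control, so that HIF activity is set largely at the level of protein, which RNA counts do not measure. Several of these genes also answer to other signals, among them ANGPTL4, a known target of the PPAR nuclear receptors.

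RNA was sequenced from BEAS-2B cells, an immortalised line of human bronchial epithelium, grown in serum-free medium on collagen. In the single-exposure protocol, cells spent 24 h in plain medium or in medium holding PM2.5 at 1 or 30 µg/cm2, from an extract of filters collected in Beijing. In the repeated protocol, cells received plain medium or the lower dose day after day, with a wash between exposures. The labels name 7 daily exposures, whereas by the methods there were 6 before collection on day 7. Each of the 5 groups holds 3 libraries, 1 from each of 3 experiments per protocol, all from 1 cell line and 1 particle source. Cells of the repeated protocol were also plated at a lower density, so that time in culture, density and changes of medium cannot be told apart when the protocols are set side by side.

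Between 21460981 and 34724765 reads were counted per library, and a count of 3 equals 0.0864 to 0.140 CPM, the count scaled to the size of the library. Values below are CPM after TMM scaling, in the order of experiments 1, 2 and 3. Epithelial keratins and adhesion genes marked the cells as labelled: all 5 of KRT8, KRT18, KRT5, EPCAM and CDH1 were expressed, at a summed 1756 to 2054 CPM in the 24-h controls. Endothelial and leukocyte markers (PECAM1, CDH5, VWF, PTPRC, CD68 and CD3E) held at most 8 counts in any library. The summed level of the epithelial markers was 754 to 1115 CPM after 30 µg/cm2, and it was 1064 to 1142 CPM after daily exposure against 1590 to 1940 CPM in the 7-day controls. EPCAM did not share the fall after daily exposure, with a mean of 87.5 CPM against 80.9 CPM, while the other 4 had lower means. At 30 µg/cm2 the mean of EPCAM was 32.2 CPM against 36.0 CPM in the 24-h controls. After 30 µg/cm2 3 of the 5 (KRT5, KRT8 and CDH1) were called lower and after daily exposure 1 was. Of all tested genes 4.24% were called lower at 30 µg/cm2 and 0.125% after daily exposure. At 30 µg/cm2 the call of CDH1 was lost when any 1 library was left out (adjusted p 0.0582 to 0.123), and that of KRT8 without the control of experiment 2 or 3 or the exposed library of experiment 1 or 3 (0.0812 to 0.185). KRT5, a keratin of basal cells, gave log2 fold changes of -2.46 (adjusted p = 7.57e-06) and -0.93 (adjusted p = 0.0477), the latter with adjusted p of 0.125 to 0.310 when any 1 library was left out. The fibroblast markers COL1A1, DCN and PDGFRA summed to 27.4 to 61.3 CPM, and none was called, though without experiment 2 COL1A1 was called at 30 µg/cm2 (log2 fold change -0.64). The part of these shifts in the results below was not tested, and in bulk RNA fewer cells and less RNA per cell cannot be told apart. Of the 24-h libraries, those of experiment 2 stood apart from those of experiments 1 and 3. Their mitochondrial share was 4.40%, 4.17% and 4.13% (control, 1 and 30 µg/cm2), against 2.76% to 3.42% in the other 24-h libraries. Calls of the 10 genes that turn on experiment 2 are given with and without it. The fit without it called more of all genes too. These shares were 19.1% against 8.07% at 30 µg/cm2 and 2.11% against 0.0625% at 1 µg/cm2 for 24 h.

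ADM encodes adrenomedullin, a secreted peptide that widens blood vessels and tightens vessel barriers. It was the 1 gene of the 10 that was called in cells exposed daily, and it was lower. ADM (ENSG00000148926.9, GRCh38 chromosome 11 from 10304680 to 10307397, plus strand) was at 35.6, 31.2 and 42.6 CPM in the 7-day controls and at 9.62, 9.04 and 9.11 CPM after daily exposure to 1 µg/cm2. Every exposed library lay below every control library, and the 3 exposed libraries were close together. The log2 fold change (log2FC) was -1.98 (SE 0.23), 3.94-fold lower, with adjusted p = 0.00675 (edgeR quasi-likelihood test, Benjamini-Hochberg adjusted over all tested genes). Genes were called at an adjusted p under 0.05 and a log2FC of 0.6 or more in either direction. By these thresholds 0.125% of tested genes were lower after daily exposure and 0.102% higher, and 1 of the 10 genes was lower and none higher. As the list was chosen with earlier results known, these shares are background and no test of the list. Among the 22 genes called lower, ADM had the most negative log2FC. Within experiments, the exposed library held 0.27, 0.29 and 0.214 of the ADM level of its control. The fold change stayed between -2.08 and -1.85 when any 1 library was left out. The adjusted p then passed 0.05 without the control of experiment 1 (0.0582), the control of experiment 3 (0.0635) or the exposed library of experiment 3 (0.0524).

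**Figure D1:**
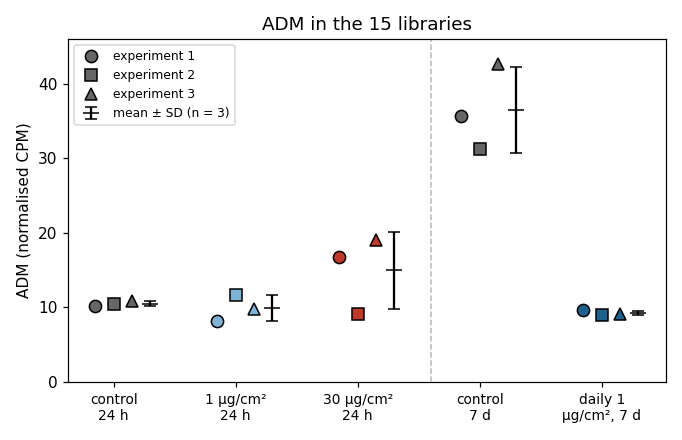
ADM in normalised CPM (linear axis) in the 15 libraries, by group, with the experiment shown by the marker and the mean ± SD (n = 3) in black. The 7-day controls, at 31.2 to 42.6 CPM, lie above all other libraries, and the daily exposed libraries lie at 9.04 to 9.62 CPM.

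At 24 h ADM was lower and more even among untreated cells. The 24-h controls held 10.2, 10.5 and 10.8 CPM of ADM, the libraries at 1 µg/cm2 8.19, 11.6 and 9.76 CPM, and those at 30 µg/cm2 16.7, 9.12 and 19.1 CPM. At 30 µg/cm2 experiments 1 and 3 were above the controls and experiment 2 was below them. Neither dose passed the test against control, with log2FCs of 0.51 (SE 0.22, adjusted p = 0.182) at 30 µg/cm2 and -0.09 (SE 0.22, adjusted p = 1) at 1 µg/cm2. Without the 24-h libraries of experiment 2 the value at 30 µg/cm2 was 0.75 and was called (adjusted p = 0.000523), and without the exposed library of experiment 2 alone it was 0.76 (adjusted p = 0.00715). Between 30 and 1 µg/cm2 the difference in ADM was 0.60 (SE 0.22, adjusted p = 0.112), and it was 0.85 and called without the 30 µg/cm2 library of experiment 2 (adjusted p = 0.00406) and 0.97 and called without 24-h experiment 2 (adjusted p = 6.56e-05). Ordered by mean, ADM was at 9.26 ± 0.32 CPM after daily exposure, 9.87 ± 1.73 CPM at 1 µg/cm2 for 24 h, 10.5 ± 0.32 CPM in the 24-h controls, 14.96 ± 5.19 CPM at 30 µg/cm2 and 36.5 ± 5.73 CPM in the 7-day controls (SD, n = 3). In this order each of the lowest 4 groups overlapped its neighbour, and the 7-day controls alone lay clear of the rest.

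The untreated cells themselves differed between the protocols. ADM was 3.47-fold higher in the 7-day than in the 24-h controls (log2FC 1.80, SE 0.23, adjusted p = 9.59e-05), and the call was kept in 6 of 6 fits that left out 1 library. The change in ADM after daily exposure was set against its change at 24 h by testing the difference of the 2 log2FCs. Daily minus single exposure at the same dose gave -1.89 (SE 0.32, adjusted p = 0.351), which was not called. It was -1.88 and was called with libraries of 1 experiment kept as a replicate block (adjusted p = 0.0386), -1.90 and called without the 24-h control of experiment 2 (adjusted p = 0.0454), and -1.76 and called without 24-h experiment 2 (adjusted p = 3.41e-05). Of all tested genes the main fit called 0 and the block 1.03%. The fit without 24-h experiment 2 called 9.84%. Daily 1 µg/cm2 minus single 30 µg/cm2 gave -2.49 (SE 0.32, adjusted p = 0.00187) and was called without and with the block.

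The sequence around the ADM start site is shown with those of CA9, the gene of the 10 that fell most, and ANGPTL4, the one that differed most between the doses, upward. HIF binds DNA at a short core, read here as ACGTG or GCGTG on either strand. Promoters were taken from RefSeq (GRCh38.p14), as windows of 300 bases that end 50 bases after the start. A core is in capitals, and CACGT is ACGTG on the minus strand. All 3 promoters are on the plus strand, at chr11:10304823-10305122 (ADM), chr9:35673678-35673977 (CA9) and chr19:8363905-8364204 (ANGPTL4).
ADM: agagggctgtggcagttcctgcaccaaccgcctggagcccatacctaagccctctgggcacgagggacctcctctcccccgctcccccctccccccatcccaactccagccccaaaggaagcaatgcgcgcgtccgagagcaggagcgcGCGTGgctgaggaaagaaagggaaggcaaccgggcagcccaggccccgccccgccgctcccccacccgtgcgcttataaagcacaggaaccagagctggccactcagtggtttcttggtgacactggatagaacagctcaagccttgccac
CA9: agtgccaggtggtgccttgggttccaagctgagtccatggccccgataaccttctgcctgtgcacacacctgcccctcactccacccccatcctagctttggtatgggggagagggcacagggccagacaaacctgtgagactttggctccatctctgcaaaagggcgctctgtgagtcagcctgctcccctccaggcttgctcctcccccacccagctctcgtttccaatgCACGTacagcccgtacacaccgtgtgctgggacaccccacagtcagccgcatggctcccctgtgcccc
ANGPTL4: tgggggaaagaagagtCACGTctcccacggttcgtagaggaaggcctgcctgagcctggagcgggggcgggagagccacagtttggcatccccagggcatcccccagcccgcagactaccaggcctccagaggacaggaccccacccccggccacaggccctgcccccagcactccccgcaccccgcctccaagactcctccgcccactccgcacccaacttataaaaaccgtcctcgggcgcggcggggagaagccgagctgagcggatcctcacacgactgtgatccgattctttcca
Each of the 3 windows holds 1 core. Counted from the start, it begins at -101 in ADM (GCGTG), at -18 in CA9 (ACGTG, minus strand) and at -234 in ANGPTL4 (ACGTG, minus strand). Of the other genes, EGLN1 and P4HA1 hold 1 core each, BNIP3 holds 6, of which 2 overlap on opposite strands, 1 of the 2 HIF1A promoters holds 1, and EGLN3 holds none. VEGFA and NDRG1 were not matched. A core stands in 48.4% of all 34796 promoters of this length, with ACGTG in 21.4% and GCGTG in 36.4%. Matches describe the letters only, and no binding was measured.

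The regulators were followed first. HIF1A encodes the alpha subunit of HIF-1, and EGLN1 and EGLN3 encode the hydroxylases that mark it. HIF1A (ENSG00000100644.16, chromosome 14 from 61695513 to 61748259) was the most abundant of the 10 genes per length, at a mean of 105.7 CPM per kilobase of exons in the 24-h controls, against 30.4 for P4HA1, 22.1 for BNIP3, 8.51 for EGLN1, 7.88 for ANGPTL4, 4.83 for NDRG1, 3.86 for ADM, 3.78 for VEGFA, 3.55 for CA9 and 0.13 for EGLN3. It was called in none of the 7 comparisons.

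At 24 h HIF1A was at 609, 420 and 605 CPM in controls, 532, 309 and 563 CPM at 1 µg/cm2, and 690, 442 and 714 CPM at 30 µg/cm2. The library of experiment 2 was the lowest of each group, and the groups overlapped. In the repeated protocol the controls held 382, 371 and 430 CPM of HIF1A and the exposed cells 304, 305 and 357 CPM. Each exposed library lay below every control, and the log2FC was -0.29 (SE 0.23, adjusted p = 0.666). The replicate block gave -0.29 with adjusted p = 0.0465, smaller than the fold threshold. The log2 difference of the 7-day from the 24-h controls was -0.47 (SE 0.23, adjusted p = 0.15), and without 24-h experiment 2 it was -0.64 and was called (adjusted p = 8.71e-06).

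EGLN1, the main oxygen sensor of the pathway, was at 63.0, 60.0 and 62.5 CPM in the 24-h controls and at 42.1, 47.8 and 48.1 CPM after 30 µg/cm2. The groups did not overlap. The log2FC was -0.43 (SE 0.13) with adjusted p = 0.0486, under the fold threshold, so that EGLN1 was not called. After daily exposure EGLN1 was at 60.3, 60.6 and 74.7 CPM against 72.4, 66.6 and 67.1 CPM in controls, and these overlapped. EGLN3, itself an inducible hydroxylase, was scarce, with 14 to 87 counts per library and 0.67 to 2.71 CPM. Its log2FCs against control were -0.25, 0.46 and 0.47 after 30 µg/cm2, 1 µg/cm2 and daily exposure, with SEs of 0.37, 0.36 and 0.35, and none was called. With these counts, changes of EGLN3 of 0.46 and 0.47 were not distinguished from 0. The smallest change of EGLN3 that could have been called was not determined.

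From a fixed list, 10 more genes of the sensing machinery were read: EPAS1, HIF3A, ARNT, ARNT2, EGLN2, VHL, HIF1AN, CITED2, EP300 and CREBBP. After 30 µg/cm2 for 24 h, 1 was called higher and 2 lower, with a list median log2FC of 0.21 against 0.03 over all tested genes. Of all tested genes 3.82% were called higher and 4.24% lower. CITED2, which competes with HIF for its coactivators, was at 65.2, 75.3 and 71.6 CPM in controls and 35.5, 24.9 and 38.5 CPM after treatment (log2FC -1.10, SE 0.18, adjusted p = 0.00163). HIF3A, an alpha subunit whose products can restrain HIF, went from 2.11, 4.47 and 1.63 CPM to 0.493, 0.381 and 0.144 CPM (log2FC -2.93, SE 0.46, adjusted p = 0.00112). The exposed libraries held 15, 11 and 3 counts of HIF3A, the last at the floor of 3 counts. ARNT2, a beta subunit, rose from 1.63, 0.753 and 1.20 CPM to 4.5, 1.56 and 3.78 CPM (log2FC 1.43, SE 0.38, adjusted p = 0.0271), with groups that overlapped. The calls of CITED2 and HIF3A were kept in 6 of 6 fits that left out 1 library. That of ARNT2 was lost without the control of experiment 2 (adjusted p = 0.0928) or 3 (0.0826) or the exposed library of experiment 1 (0.15) or 3 (0.102). With the block 4 were called, now with EPAS1, which encodes the alpha subunit of HIF-2, at 0.62 (adjusted p = 0.0011), against 0.65 and adjusted p = 0.0981 without it. The block called 15.2% of all tested genes at this dose. None of the 10 was called at 1 µg/cm2 for 24 h or after daily exposure. Of these genes, 0 had an unadjusted p under 0.05 in either comparison, and DESeq2 called 0. Between the controls of the protocols 1 was higher at 7 days (CREBBP) and 2 were lower (CITED2 and HIF3A), where 11.1% of tested genes were higher and 10.8% lower. The call of CREBBP was lost in 5 of 6 fits that left out 1 library (adjusted p 0.088 to 0.151), all but that without the 24-h control of experiment 1. That of HIF3A was lost without the 24-h control of experiment 2 (0.159) or any 1 of the 7-day controls (0.0593 to 0.123).

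After 30 µg/cm2 for 24 h, 2 of the 10 genes followed here were called higher (VEGFA and NDRG1) and 1 lower (CA9). By the same thresholds 3.82% of all tested genes were higher and 4.24% lower. The log2FCs of the 10 genes ran from -4.10 to 2.49 with a median of -0.03, beside a median of 0.03 over all tested genes.

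**Figure D2:**
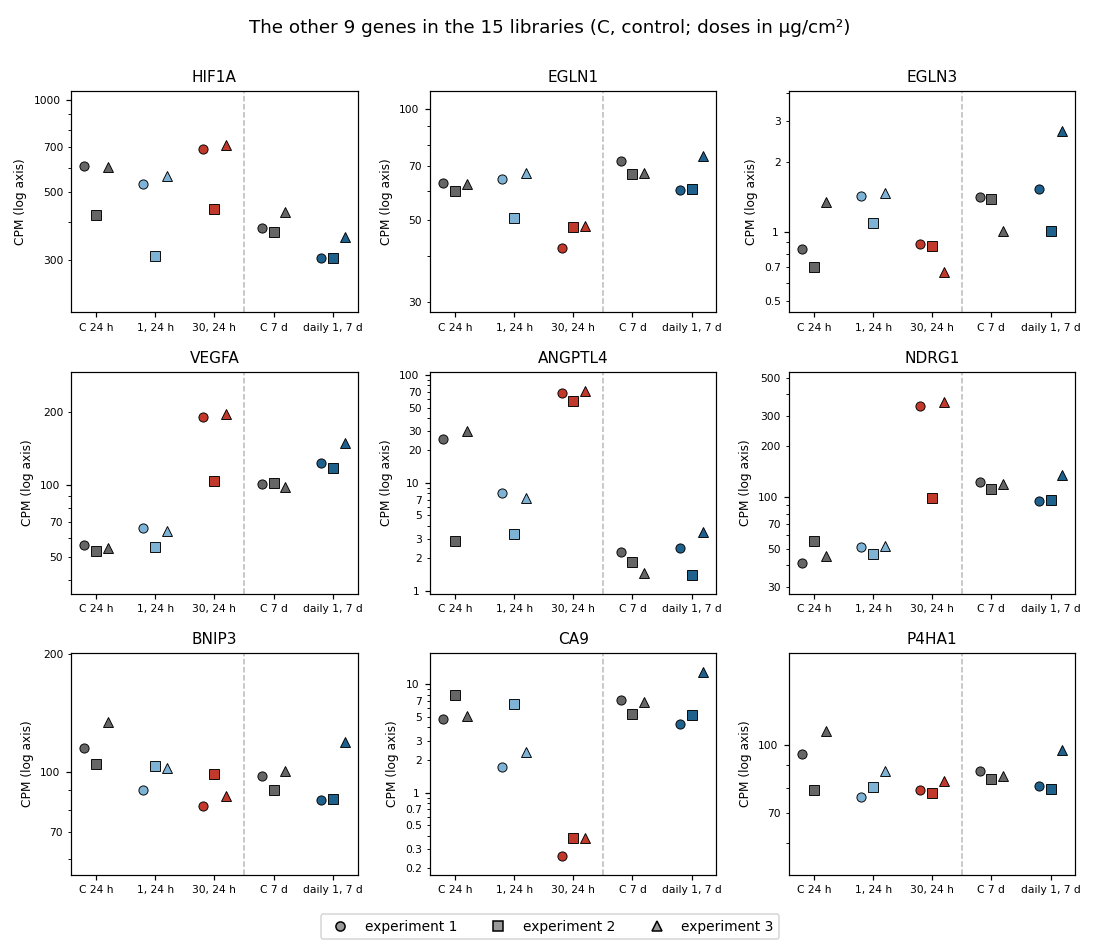
Normalised CPM (log axes, a different range in each panel) of the 9 genes other than ADM in the 15 libraries, with the experiment shown by the marker and the protocols parted by a dashed line. The means of VEGFA, NDRG1 and ANGPTL4 are highest at 30 µg/cm2 and that of CA9 is lowest there, while P4HA1 lies between 76.3 and 107 CPM in every library.

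VEGFA (ENSG00000112715.21, chromosome 6 from 43770184 to 43786487, plus strand) encodes the growth factor that drives new vessels. It was at 56.2, 52.9 and 54.6 CPM in the 24-h controls and 192, 104 and 196 CPM after 30 µg/cm2. All exposed libraries were above all controls, with that of experiment 2 the lowest of the 3. The log2FC of VEGFA was 1.59 (SE 0.20, adjusted p = 0.000221), 3-fold higher. Against cells at 1 µg/cm2, which held 66.4, 54.8 and 64.3 CPM, it was 1.41 (SE 0.20, adjusted p = 0.000645). Single exposure to 1 µg/cm2 gave 0.18 (SE 0.19, adjusted p = 1).

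After daily exposure VEGFA was at 123, 117 and 149 CPM, and the 7-day controls held 100, 102 and 98.2 CPM. The exposed libraries were above the controls in every pair, and the log2FC of 0.37 (SE 0.19, adjusted p = 0.475) was not called. As with ADM, the untreated cells differed, with VEGFA 1.84-fold higher in the 7-day than in the 24-h controls (log2FC 0.88, SE 0.19, adjusted p = 0.00424).

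NDRG1 (ENSG00000104419.14) encodes a stress-inducible protein of differentiation that is widely used as a marker of hypoxia. It held 41.1, 55.8 and 45.5 CPM in the 24-h controls and 342, 98.8 and 360 CPM after 30 µg/cm2. The groups did not overlap, and the library of experiment 2 was the lowest of the exposed. The log2FC of NDRG1 was 2.49 (SE 0.35, adjusted p = 0.000535), 5.63-fold higher, and within experiments the exposed library held 8.33, 1.77 and 7.92 times the level of its control. Without experiment 2 the log2FC was 3.01. At 1 µg/cm2 for 24 h NDRG1 was at 51.6, 46.6 and 52.0 CPM, and the 30 µg/cm2 libraries were above these by 2.42 on the log2 scale (SE 0.35, adjusted p = 0.000865).

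In the repeated protocol NDRG1 was at 122, 112 and 120 CPM in controls and at 95.4, 96.5 and 135 CPM after daily exposure, which overlapped (log2FC -0.12, SE 0.33, adjusted p = 0.925). The 7-day controls held more NDRG1 than the 24-h controls (log2FC 1.32, SE 0.34, adjusted p = 0.0105).

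ANGPTL4 (ENSG00000167772.11, chromosome 19 from 8363289 to 8374373, plus strand) encodes a secreted inhibitor of lipoprotein lipase. Its level in untreated cells differed most between experiments, at 25.8, 2.92 and 30.0 CPM in the 24-h controls. After 30 µg/cm2 the 3 libraries were alike, at 68.2, 57.7 and 71.3 CPM, all above the controls. Within experiments ANGPTL4 was 2.65, 19.8 and 2.37 times the control. The log2FC was 1.74 (SE 0.57, adjusted p = 0.0701) and was not called, but it was 2.07 and called with the replicate block (adjusted p = 0.00243), 1.31 and called without 24-h experiment 2 (adjusted p = 3.51e-05), 1.24 and called without the control of experiment 2 alone (adjusted p = 0.0413), and called by DESeq2 (adjusted p = 0.0204).

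At 1 µg/cm2 for 24 h ANGPTL4 was at 7.99, 3.37 and 7.23 CPM. Experiments 1 and 3 were below their controls and experiment 2 was near its own. The log2FC was -1.65 (SE 0.58, adjusted p = 1), and it was -1.86 and called without 24-h experiment 2 (adjusted p = 3.83e-05) and -2.14 and called without the control of experiment 2 (adjusted p = 0.0213). Between the doses the difference in ANGPTL4 was called, 3.40 on the log2 scale higher at 30 than at 1 µg/cm2 (SE 0.61, adjusted p = 0.00348). In the repeated protocol it was low in both groups, at 2.28, 1.86 and 1.47 CPM in controls and 2.49, 1.41 and 3.49 CPM after daily exposure (log2FC 0.40, SE 0.64, adjusted p = 0.856). The log2 difference between the controls of the protocols was -3.39 (SE 0.64, adjusted p = 0.00154). For daily minus single 1 µg/cm2 it was 2.05 (SE 0.86, adjusted p = 0.667), 2.55 and called without the 24-h control of experiment 2 (adjusted p = 0.0454), and 2.27 and called without 24-h experiment 2 (adjusted p = 0.000332). For daily minus single 30 µg/cm2 the ANGPTL4 difference was -1.34 (SE 0.85, adjusted p = 0.466), and -0.90 and called without 24-h experiment 2 (adjusted p = 0.0314).

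CA9 (ENSG00000107159.12, chromosome 9 from 35673856 to 35681159, plus strand) encodes a carbonic anhydrase at the cell surface that controls pH and is a textbook HIF-1 target. It moved opposite to VEGFA and NDRG1. CA9 was at 4.73, 8.0 and 5.03 CPM in the 24-h controls, 1.73, 6.54 and 2.39 CPM at 1 µg/cm2, and 0.263, 0.381 and 0.383 CPM at 30 µg/cm2. At 30 µg/cm2 the libraries held 8, 11 and 8 counts, each above the floor of 3 counts and below every other library of the 24-h protocol. The log2FC of CA9 against control was -4.10 (SE 0.59, adjusted p = 0.000595), 17.2-fold lower. Within experiments CA9 held 0.0556, 0.0477 and 0.0761 of the level of its control, on the log2 scale more even than VEGFA or NDRG1, the other called genes of the 10 at this dose. At 1 µg/cm2 the change against control was -0.75 (SE 0.47, adjusted p = 1) and that between the doses was -3.35 (SE 0.59, adjusted p = 0.00307).

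After daily exposure CA9 was at 4.25, 5.20 and 12.9 CPM, and the 7-day controls held 7.07, 5.27 and 6.90 CPM. These overlapped, with experiment 3 the highest (log2FC 0.21, SE 0.46, adjusted p = 0.896). CA9 shares 643 of its 1670 exon bases (38.5%) with ARHGEF39 on the other strand, and the strand setting of the counting was not given in the sources used here, so reads of the overlap cannot be assigned to either gene with certainty. For the other 9 genes at most 2.87% of the exon bases overlap another gene.

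BNIP3 and P4HA1 were called in none of the 7 comparisons. BNIP3 encodes a mitochondrial protein that starts mitophagy and cell death. It was at 115, 105 and 134 CPM in the 24-h controls, 89.9, 103 and 102 CPM at 1 µg/cm2, and 81.9, 98.6 and 86.9 CPM at 30 µg/cm2. Each library at 30 µg/cm2 lay below every control, by -0.40 on the log2 scale (SE 0.15, adjusted p = 0.104). After daily exposure it was at 84.8, 85.2 and 119 CPM against 97.3, 89.8 and 100.5 CPM. P4HA1, a collagen prolyl hydroxylase, ranged from 76.3 to 107 CPM over all 15 libraries. Its log2FCs against control were -0.24, -0.21 and 0.01 after 30 µg/cm2, 1 µg/cm2 and daily exposure, each with an SE of 0.12.

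**Figure D3:**
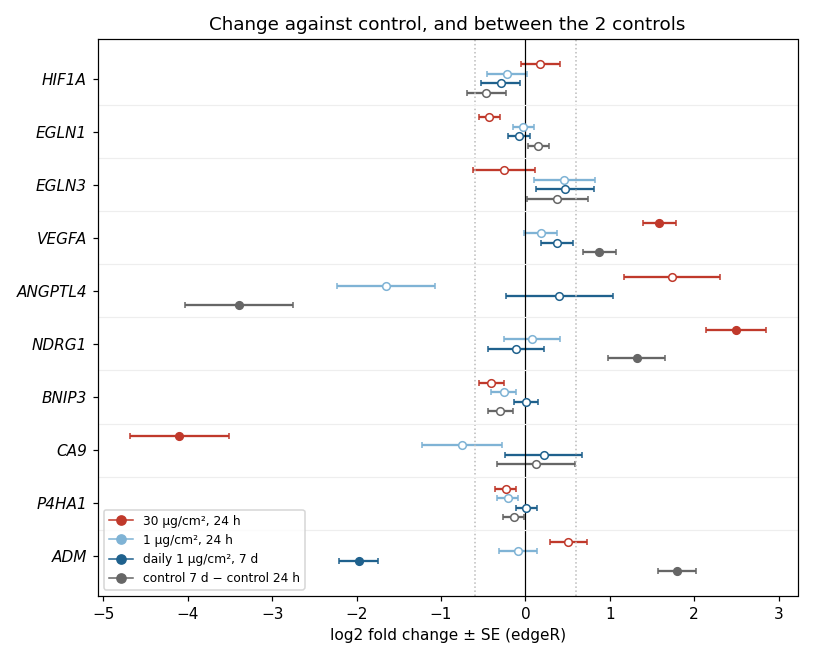
Log2 fold change ± SE from edgeR for the 10 genes after each exposure against its control, and for the 7-day against the 24-h controls; filled points passed both thresholds, open points did not, and dotted lines mark a log2FC of 0.6 in each direction. ADM is filled after daily exposure at -1.98, and VEGFA, NDRG1 and CA9 are filled after 30 µg/cm2.

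At 1 µg/cm2 for 24 h none of the 10 genes was called, where 0.0455% of tested genes were called higher and 0.017% lower. Of the 10, 1 (ANGPTL4) had an unadjusted p under 0.05, and DESeq2 called 0. At 30 against 1 µg/cm2, 3 genes were higher (VEGFA, NDRG1 and ANGPTL4) and CA9 was lower, beside 3.62% and 4.22% of tested genes. This comparison shares its 30 µg/cm2 libraries with that against control. In a fit of these 6 libraries alone only ANGPTL4 was called, with adjusted p = 0.0733 for VEGFA, 0.0749 for NDRG1 and 0.0601 for CA9.

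**Figure D4:**
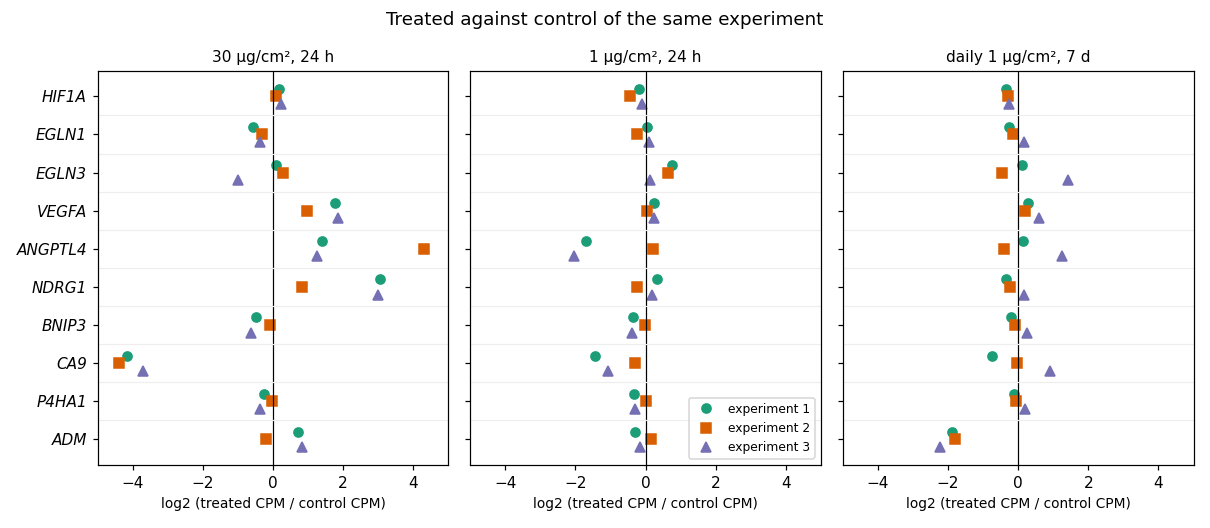
Log2 ratio of the exposed to the control library of the same experiment for the 10 genes, 1 panel for each exposure, with the experiment shown by colour and marker. At 30 µg/cm2 experiment 2 lies apart for NDRG1 (0.82 against 3.06 and 2.99) and ANGPTL4 (4.31 against 1.40 and 1.25), and after daily exposure ADM lies at -1.89, -1.79 and -2.22.

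The responses of the protocols were then compared for all 10 genes. For daily minus single exposure at 1 µg/cm2, edgeR called 0 of the 10 genes and 0% of all tested genes, with 1245 of the tested genes and 2 of the 10 (ADM and ANGPTL4) at an unadjusted p under 0.05. DESeq2 called 66 genes and the replicate block 181, and in both ADM was the 1 gene of the 10. Without 24-h experiment 2, 1766 of 17950 tested genes were called, among them 2 of the 10. For daily 1 µg/cm2 minus single 30 µg/cm2, where dose and protocol both differ, 1 of the 10 was higher and 3 were lower, beside 0.841% and 0.977% of tested genes. CA9 had a difference of 4.32 (SE 0.75, adjusted p = 0.0102), NDRG1 one of -2.61 (SE 0.48, adjusted p = 0.0138) and VEGFA one of -1.22 (SE 0.27, adjusted p = 0.0373), beside that of ADM above. The call of VEGFA was kept in 1 of 12 fits that left out 1 library, with adjusted p up to 0.125, and those of the other 3 in 12 of 12.

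Between the controls of the protocols, 3 of the 10 genes were higher at 7 days (ADM, VEGFA and NDRG1) and 1 lower (ANGPTL4), where 11.1% of tested genes were higher and 10.8% lower. The values of each control group enter the exposure comparisons as well, so the contrasts are not independent.

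To set the 10 beside their pathway, 29 other genes known as HIF targets were read from a fixed list. After 30 µg/cm2 for 24 h, 2 of the 29 were called higher and 6 lower, with a list median log2FC of -0.09 against 0.03 over all tested genes. Of all tested genes 3.82% were called higher and 4.24% lower. The genes that rose were STC2 and BHLHE40. STC2, a secreted glycoprotein of the stress response, went from 216, 236 and 214 CPM to 778, 491 and 787 CPM, a log2FC of 1.63 (SE 0.17, adjusted p = 6.98e-05). BHLHE40, a transcriptional repressor, had a log2FC of 1.24 (SE 0.31, adjusted p = 0.0189). Its call was lost without the control of experiment 2 (adjusted p = 0.0743) or the exposed library of experiment 1 (0.0858) or 3 (0.0904).

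The 6 that fell were LOX, LDHA, AK4, BNIP3L, PLOD2 and PGK1, and all but LOX and LDHA are named after their values were seen. LOX, which crosslinks collagen, fell from 98.4, 72.4 and 102 CPM to 22.9, 29.2 and 25.5 CPM (log2FC -1.81, SE 0.14, adjusted p = 1.18e-05). LDHA, which turns pyruvate into lactate, went from 1229, 897 and 1415 CPM to 402, 667 and 429 CPM (log2FC -1.24, SE 0.21, adjusted p = 0.00205). AK4 had a log2FC of -1.06, BNIP3L of -0.79, PLOD2 of -0.74 and PGK1 of -0.67. The call of PLOD2 was kept only without the control of experiment 2, with adjusted p of 0.0505 to 0.0956 in the other 5 fits, and that of PGK1 was lost without the control of experiment 3 (adjusted p = 0.0527) or the exposed library of experiment 1 (0.064) or 3 (0.0799). With the replicate block 2 were higher and 8 lower, and without 24-h experiment 2 the counts were 2 and 12. Of all tested genes these fits called 15.2% and 19.1%, against 8.07% in the main fit. Genes that rose stood beside genes that fell, as among the 10 genes followed here.

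**Figure D5:**
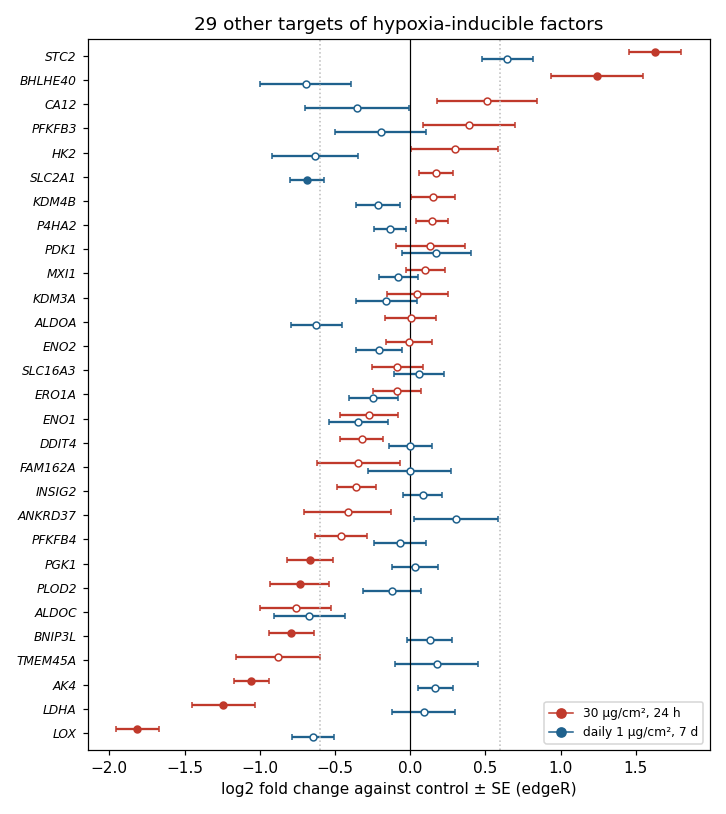
Log2 fold change ± SE from edgeR for 29 other HIF targets after 30 µg/cm2 for 24 h (red) and after daily 1 µg/cm2 (blue), ordered by the first; filled points passed both thresholds. STC2 and BHLHE40 are filled to the right and 6 genes to the left in red, and SLC2A1 alone is filled in blue.

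At 1 µg/cm2 for 24 h 1 of the 29 was called, LOX, which was lower (51.0, 46.2 and 53.0 CPM, log2FC -0.86, SE 0.14, adjusted p = 0.0484). That call was kept only where the control of experiment 2 was left out, with adjusted p of 0.124 to 0.306 in the other 5 fits, and without 24-h experiment 2 altogether 1 of the 29 was higher and 2 were lower. In the main fit 0.017% of all tested genes were lower at this dose and 0.125% lower after daily exposure. After daily exposure 1 of the 29 was called, SLC2A1, which encodes the glucose transporter GLUT1. SLC2A1 was at 210, 206 and 243 CPM in the 7-day controls and 147, 140 and 123 CPM after exposure (log2FC -0.69, SE 0.11, adjusted p = 0.0302). The groups did not overlap, yet leaving out any 1 of the 6 libraries moved its adjusted p to between 0.0973 and 0.246. With the replicate block 1 of the 29 was higher and 6 lower. The block called 4.39% of all tested genes after daily exposure.

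Between the controls of the protocols 2 of the 29 were higher at 7 days and 10 lower. Of all tested genes 11.1% were higher and 10.8% lower. SLC16A3, a lactate exporter, had a log2 difference of -2.01, and the glycolytic enzymes ENO1, LDHA and ALDOC had differences of -1.74, -1.48 and -1.42. The 2 higher genes, named after their values were seen, were MXI1, a repressor of MYC targets (1.17), and SLC2A1 (0.74). Between 30 and 1 µg/cm2, 2 of the 29 were higher and 4 lower, and for daily minus single 30 µg/cm2 4 were higher and 2 lower. Without 24-h experiment 2 these counts were 3 and 8, and 10 and 4, and with the replicate block 2 and 6, and 6 and 6. Of all tested genes 3.62% were higher and 4.22% lower between the doses, and 0.841% and 0.977% for the other contrast. In either direction the fit without experiment 2 called 17.3% and 21.6%, and the block 15.6% and 14.6%. Between the doses the calls of BHLHE40 and LDHA were lost without the 30 µg/cm2 library of experiment 1 or 3 (adjusted p 0.13 to 0.152). That of BHLHE40 was also lost without the 1 µg/cm2 library of experiment 1 (0.06) or 2 (0.0627). LDHA lost its call without that of experiment 3 (0.0906), and BNIP3L fell under the fold threshold without that of experiment 2 (-0.59). Of the 6 calls for daily minus single 30 µg/cm2, 4 were lost without the 7-day control of experiment 3 or the 30 µg/cm2 library of experiment 1 or 3, and 2 or 3 without any other library but the 30 µg/cm2 library of experiment 2. For daily minus single 1 µg/cm2 none was called, with 3 at an unadjusted p under 0.05, 1 called by DESeq2, 2 with the block and 4 without 24-h experiment 2.

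The partners of ADM were read next. Adrenomedullin signals through the receptor CALCRL together with RAMP2 or RAMP3, and PAM amidates the peptide into its active form. CALCRL held 0 to 22 counts per library and RAMP2 5 to 25, and RAMP3 held at most 2 and was not tested. RAMP1, which turns CALCRL into the receptor for calcitonin gene-related peptide, held 42 to 170 counts. Of the 9 genes of this list (ADM2, ADM5, CALCRL, RAMP1, RAMP2, RAMP3, PAM, CALCB and ACKR3) 8 were tested, and none was called after any exposure against control, except under the alternatives that follow. After daily exposure 1 had an unadjusted p under 0.05, DESeq2 called 0, and the replicate block called ADM5, another relative of ADM (log2FC 1.04, adjusted p = 0.042, against 1.01 and 0.312 without it). At 30 µg/cm2 2 had one and DESeq2 called 1, and at 1 µg/cm2 for 24 h 0 had one, DESeq2 called 0, and the fit without experiment 2 called ADM2 (1.18, adjusted p = 6.19e-05). PAM was at 181, 184 and 189 CPM in the 24-h controls and 123, 139 and 125 CPM after 30 µg/cm2, groups that did not overlap, with a log2FC of -0.52 (SE 0.11, adjusted p = 0.00945) under the fold threshold. ADM2, a relative of ADM that binds the same receptors, was at 3.73, 22.3 and 3.79 CPM in the 24-h controls and 35.01, 38.9 and 37.7 CPM after 30 µg/cm2. Its log2FC was 1.92 (SE 0.63, adjusted p = 0.0723), 2.45 and called with the replicate block (adjusted p = 0.000455), and 3.26 and called without experiment 2 (adjusted p = 1.84e-11). Neither PAM nor ADM2 was called in any comparison of the main fit, so both are named after their values were seen. Between the protocols' controls 1 gene was called lower, ADM5 (log2 difference -1.38, adjusted p = 0.0164), whose call was lost without the 24-h control of experiment 1 (adjusted p = 0.0573) or the 7-day control of experiment 1 (0.0688) or 3 (0.0738). CALCB was called higher, but it held 0 counts in the 24-h controls and 3, 4 and 14 in the 7-day controls. Between these controls 11.1% of all tested genes were higher and 10.8% lower.

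Of 9 other VEGF ligands and receptors 7 were tested. KDR, the main VEGFA receptor, was scarce, at 2.32, 2.92 and 2.27 CPM in the 24-h controls and 0.756, 0.694 and 0.958 CPM after 30 µg/cm2 (log2FC -1.64, SE 0.27, adjusted p = 0.00178). It was the 1 gene of this list called at that dose, and its call was kept in 6 of 6 fits that left out 1 library. Over all tested genes 4.24% were called lower at that dose and 3.82% higher. The block also called the coreceptor NRP2 (log2FC 0.88, adjusted p = 0.0204), and the fit without experiment 2 also called NRP2 (1.08) and VEGFB (-0.81). None was called at 1 µg/cm2 for 24 h or after daily exposure, with 0 and 1 at an unadjusted p under 0.05, 0 and 1 called by DESeq2, and 0 and 1 (KDR) called with the block. Between the controls of the protocols 4 were lower at 7 days and none higher (NRP1, VEGFC, PGF and KDR), beside the 10.8% and 11.1% of all tested genes. NRP1, a coreceptor of VEGFA, had a log2 difference of -1.87 (SE 0.29, adjusted p = 0.000425). The calls of VEGFC and KDR were both lost without the 24-h control of experiment 3 (adjusted p = 0.106 and 0.0511) or the 7-day control of experiment 1 (0.0745 and 0.114) or 3 (0.0901 and 0.116), VEGFC alone without the 24-h control of experiment 1 (0.0734) or the 7-day control of experiment 2 (0.0754), and KDR alone without the 24-h control of experiment 2 (0.0792).

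Because ANGPTL4 is also a PPAR target, 4 other PPAR targets were read (PDK4, PLIN2, CPT1A and SLC25A20), all of them tested. After 30 µg/cm2 1 was higher and 1 lower. Over all tested genes the shares were 3.82% higher and 4.24% lower. PLIN2, a lipid droplet protein, was at 56.9, 76.6 and 66.4 CPM in controls and 100.5, 103 and 117 CPM after treatment (log2FC 0.68, SE 0.15, adjusted p = 0.0113), a call lost without the control of experiment 1 (adjusted p = 0.0651) or the exposed library of experiment 3 (0.0597). PDK4, a brake on pyruvate oxidation, fell from 10.2, 13.8 and 9.28 CPM to 3.29, 5.76 and 3.64 CPM (log2FC -1.39, SE 0.23, adjusted p = 0.00153). None was called after daily exposure or at 1 µg/cm2, with 2 and 0 at an unadjusted p under 0.05, 1 and 0 called by DESeq2, and 1 (PDK4) and 0 called with the block.

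The genes whose pattern over the 15 libraries was most like that of ADM were DUSP10 (Pearson r = 0.953 of log2 CPM), SLC2A1 (0.947), KAT7 (0.923), MT-TP (0.880) and DCTN4 (0.878). These r values describe 15 libraries that share groups, experiments and controls, and each of the 5 genes had its highest group mean in the 7-day controls. Mean DUSP10 was 4.23, 4.14 and 5.47 CPM at 24 h (control, 1 and 30 µg/cm2), 11.9 CPM in the 7-day controls and 4.99 CPM after daily exposure. The 5 genes were picked as the highest r among all tested genes, so every other gene has a lower r by this choice. Of the other 9 genes followed here, NDRG1 had the highest r with ADM (0.451), followed by VEGFA (0.281), and ANGPTL4 the lowest (-0.240).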

How the data were processed

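RNA from BEAS-2B cells was poly-A selected and sequenced as single-end reads of 50 bases. The authors deposited raw counts per gene, made with STAR 2.5.3 and featureCounts, without normalization, beside the exon length of each gene, used here for levels per kilobase. The methods name GRCh38 and the submitters' processing notes hg19. The coordinates in the table equal those of GENCODE 44 (GRCh38) in 33424 of 33424 genes with the same identifier and version, so GRCh38 is used. The options of featureCounts were not given in the sources used here.

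In R 4.3.3, genes were filtered with filterByExpr by group, which kept 17599, libraries were scaled by TMM, and a quasi-likelihood model of edgeR 4.0.16 (legacy mode) with 1 mean per group was fitted to all 15 libraries. P-values were adjusted by Benjamini-Hochberg over all tested genes, and a call needed an adjusted p under 0.05 with a log2FC of 0.6 or more in either direction, after the methods. The SE is the size of the log2FC over the root of its F value. Of other lists, at most 4 called genes per list and comparison are named, by size of log2FC, and the 5 genes with the highest r to ADM (log2 CPM, prior count 2). Other genes named, and those called only under an alternative, were chosen after their values were seen. The 10 genes and all lists were chosen with earlier results of these data known. A list is described by its counts and median, with no test. Among the listed genes 2 are not reported here and are left out of the counts.

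The series record gives the last number of a sample name as an experimental batch, so libraries of 1 number within a protocol were taken as pairs. Their deviations from the group means correlated at 0.201 to 0.721 at 24 h and 0.121 to 0.181 at 7 days. For different numbers r was -0.683 to 0.453 and -0.127 to -0.0341, with values above 0 at 24 h only between experiments 1 and 3. Centring on the group means itself lowers r for different numbers. A fit with the number as a replicate block was run beside the main one, separately within each protocol. The experiments were independent repeats with 1 cell line. In the main fit p-values rest on 1 spread per gene over all 15 libraries of both protocols, and the pairs are not modelled. In the block fit the differences between experiments of 1 protocol are taken out.

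Alternatives were RLE scaling, no filter on low counts, DESeq2 1.42.0, edgeR's current mode, only the libraries compared, the block, the 24-h libraries of experiment 2 left out, and each library left out. On simulated counts for the daily comparison (17215 genes, 200 changed), the fit recovered 92.2% of genes changed by -2 on the log2 scale and 62.3% of those changed by -1. For changes of 2 and 1 upward it recovered 100% and 45.5%. The changed genes were drawn from those with a mean above 1 CPM, so these rates do not cover scarcer genes. All groups otherwise had the same mean, and 5 unchanged genes were called. No effect of experiment was simulated. Floors cover counting error only. Promoters were read from RefSeq, of which 8 of the 10 genes had an entry. Methylation data of the study were not analysed here.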

Additional observations from a re-analysis of the deposited data

Results flagged for a closer look

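For 4 of the 10 genes the response to daily 1 µg/cm2 differed from the response to 30 µg/cm2 for 24 h by a test of the difference itself, in which dose and protocol both differ. The difference of the log2 fold changes was -2.49 for ADM, -1.22 for VEGFA, 4.32 for CA9 and -2.61 for NDRG1. That of ADM joins a fall after daily exposure (-1.98) to a value at 30 µg/cm2 that did not pass the test (0.51). Those of VEGFA, CA9 and NDRG1 stand beside changes at 30 µg/cm2 of 1.59, -4.10 and 2.49 and beside values after daily exposure of 0.37, 0.21 and -0.12 that did not pass it. The 7-day and 24-h controls differed in ADM, VEGFA and NDRG1, and the part of plating density and time in culture cannot be told apart.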

How the results depend on the processing

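No value of the 10 genes reversed beyond its error under the alternatives run. Of 1010 values of the 10 genes, 971 kept their direction or their side of the thresholds, 22 became called and 17 lost a call, and 25 changed sign where neither value was distinguished from 0. The calls of the other listed genes were less steady, with 732 values that kept the call under an alternative and 152 that lost it. With 1 library left out 320 kept it and 124 lost it. In fits of only the libraries compared 45 kept it and 21 lost it. Counts of called genes among the 10 moved by over 1.5 times only as follows. At 30 µg/cm2 against control (3 genes) 5 were called without 24-h experiment 2. At 1 µg/cm2 for 24 h (0 genes) 1 was called without 24-h experiment 2 and 1 with no filter on low counts. At 30 against 1 µg/cm2 (4 genes) 1 was called in a fit of only the libraries compared. For daily minus single 1 µg/cm2 (0 genes) 2 were called without 24-h experiment 2, and 1 each with the replicate block, DESeq2, no filter on low counts and only the libraries compared. Leaving out 1 library gave 0 to 1 genes after daily exposure (1 gene), 0 to 1 at 1 µg/cm2 for 24 h and 0 to 2 for daily minus single 1 µg/cm2.

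Over all tested genes the replicate block raised the count of calls from 1420 to 2681 at 30 µg/cm2, from 11 to 74 at 1 µg/cm2 for 24 h and from 40 to 773 after daily exposure. DESeq2 called 1825, 39 and 251. Without 24-h experiment 2 the counts were 3430 at 30 µg/cm2 and 378 at 1 µg/cm2 for 24 h, of 17950 tested genes. They rose from 320 to 3884 for daily minus single 30 µg/cm2 and from 3860 to 5564 between the controls. Among the 10 genes the block changed the call of ANGPTL4 at 30 µg/cm2 and of ADM for daily minus single 1 µg/cm2, and no other call. The 7-day and 24-h controls could not be blocked, since their experiments differ. EGLN3 held at most 87 counts a library. At 30 µg/cm2 CA9 held 8, 11 and 8 counts and HIF3A 15, 11 and 3, which limits how exactly their changes are known. The causes of these shifts were not tested.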
